A study of Mus musculus with 12 samples.

Results

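The mouse genome carries a large group of zinc finger genes whose symbols are Zfp followed by a number, and 243 of them, from Zfp1 to Zfp899, are described here in thymocytes with and without the miR-181a/b-1 microRNA pair. A gene was included when the authors' tables gave it such a symbol and its mean count over the 6 libraries of an assay was at least 10 in both RNA-seq and ribosome footprints. Zfp36, a protein of another finger type, was left out. The 243 genes were drawn from 55335 gene rows, of which 11631 had a mean of 10 or more in both assays. Of 249 genes with such a symbol in the authors' tables, 6 fell below the minimum, all 6 in footprints. Just inside the limit were Zfp558 with mean counts of 10.5 in RNA-seq and 12.8 in footprints, Zfp2 with 17.7 and 10.8, and Zfp580 with 11.3 and 16.8. Just outside were Zfp125 with 36.2 and 5.17, Zfp811 with 14.0 and 5.67, and Zfp82 with 31.3 and 6.17. Zfp91 and Zfp827 passed the count minimum but carry no symbol in the authors' tables, so they are not among the 243. All 243 genes also passed the low-count filter of both assays and entered every test below.

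Most of these proteins hold arrays of C2H2 zinc fingers, short folds in which a pair of cysteines and a pair of histidines grip a zinc ion and a helix reads DNA. Many also carry a KRAB domain, which recruits the scaffold protein Trim28 (KAP1) and, through it, histone methyltransferases and heterochromatin proteins that silence transposable elements and genes. The finger repeats are so alike that their coding sequences hold the same short motifs many times over, and repeated matches in such coding sequence have been proposed as sites of miR-181. miR-181 is abundant in immature thymocytes, where it is known for tuning the sensitivity of the T cell receptor.

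The mature miR-181 sequences are shown because the proposal rests on their seed, bases 2 to 8, printed here in capitals. They are RefSeq entries (GRCm38.p6), 5′ to 3′.
mmu-miR-181a-5p: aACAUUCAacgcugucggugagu
mmu-miR-181b-5p: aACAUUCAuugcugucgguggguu
mmu-miR-181c-5p: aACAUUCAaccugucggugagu
mmu-miR-181d-5p: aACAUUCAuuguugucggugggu
All 4 share the seed ACAUUCA. The first is made by 2 genes, Mir181a-1 and Mir181a-2, and the second by 2 genes, Mir181b-1 and Mir181b-2, so a mouse without the a-1 and b-1 genes keeps genes for all 4 sequences. The DNA letters that pair with the seed are TGAATGT. Read in the frame that makes GAA and TGT whole codons, they encode glutamate and cysteine, and a cysteine, any residue, glutamate, cysteine run is common at the start of C2H2 fingers. Coding sequences of the 243 genes were not analysed here, so no gene is described by its number of matches.

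Thymocytes came from the thymus of 6-week-old mice, 3 wild type (WT) and 3 miR-181a/b-1 knockout (KO), and each genotype gave 3 RNA-seq and 3 footprint libraries, 12 in all. No strain is given in the sources used here, and all cells met cycloheximide, which holds ribosomes in place, straight after isolation. Footprints are the stretches of mRNA that ribosomes shield from nuclease, so their number per gene follows both how much mRNA there is and how many ribosomes it carries. The Mir181a-1 row held 148 ± 16.8 CPM in WT footprints against 0.828 ± 0.317 CPM without the pair (SD, n = 3), where CPM is the count of reads scaled by edgeR to a common library size with TMM factors. In RNA-seq it had 2.81 ± 1.62 and 3.27 ± 1.59 CPM (SD, n = 3), so it checks the footprint labels and not the RNA-seq labels, and RNA-seq libraries are called below by their label.

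Libraries held 4479182 to 8180286 reads in genes in RNA-seq and 4069968 to 17859770 in footprints, the fewest in footprint KO replicate 3. Summed CPM of 10 thymocyte markers was 22645 to 23824 in WT and 22340 to 23516 in KO footprints, and 12576 to 13896 and 11833 to 12780 in RNA-seq. Markers of other cells were far lower in footprints: 4 B cell markers summed to 43.0 to 56.3 CPM in WT and 56.0 to 73.8 in KO, and 5 thymic epithelial markers to 75.5 to 82.3 and 59.8 to 70.5. In RNA-seq the sums did not overlap between labels for 3 erythroid markers (52.3 to 60.5 CPM in WT and 37.4 to 44.0 in KO), 2 endothelial markers (168 to 174 and 201 to 210) 5 thymic epithelial markers (18.9 to 22.2 and 14.2 to 17.3) and 3 fibroblast markers (28.1 to 29.8 and 25.1 to 26.6). Endothelial sums did not overlap in footprints either, at 139 to 143 and 150 to 154 CPM, nor did the thymic epithelial footprint sums given above. Sums of myeloid and fibroblast markers were at most 189 CPM in any library. Single markers of other cells called in footprints were Cd79b (B cells, 0.48 on the log2 scale), Epcam (epithelium, -0.50), Alas2 (erythroid, -0.74) and Pecam1 (endothelium, 0.13). Only Cd79b was also called with the block described below (edgeR FDR 0.0466). The 4 B cell markers had a median of 0.10 and a lowest value of -0.26 in footprints. Cdh5, the other endothelial marker, differed by -0.50 there and was not called. The highest footprint values were 0.38 in the epithelial list and 0.03 in the erythroid list. In RNA-seq Krt5 (epithelium, -1.07), Hbb-bs (erythroid, -0.62) and Pecam1 (0.25) were called, none with the block. No marker was at 0 in all libraries. Within the thymocyte list Cd4 footprints rose by 0.57 on the log2 scale, also with the block described below, and those of Rag1, Ptcra and Lck changed by -0.30, -0.37 and -0.12, and the part of such shifts in the results below was not tested. In these bulk samples, fewer cells of a type and less RNA per cell cannot be told apart.

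Libraries that share a number deviated in opposite directions, which touches all tests below. For the 243 genes, the deviation of a WT library from its group mean was close to the mirror image of that of the KO library with the same number: the correlation over genes was -0.98 to -0.96 in RNA-seq and -0.97 to -0.95 in footprints, against 0.18 to 0.68 and 0.34 to 0.60 for libraries of different number. The same held over all well counted genes. The authors call these counts adjusted and the labels do not say how. SDs, SEs and adjusted p-values may therefore not measure the spread between mice. The main counts of calls are given for the fit of KO against WT and again with the replicate number as a block, which changed most calls. A gene is called when its edgeR quasi-likelihood FDR (Benjamini-Hochberg over all genes tested) is under 0.05.

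The clearest changes were in ribosome footprints, where 32 of the 243 genes rose in KO and 11 fell. The largest rise was that of Zfp260, at 2.33-fold, followed by Zfp850 and Zfp120, each at 2.01-fold. The largest fall was that of Zfp473, at 1.93-fold. All 32 rises and all 11 falls had footprint libraries that did not overlap between KO and WT, as did 38.1% of all genes tested. Lack of overlap in a called gene below therefore restates the call and adds no support to it. The 43 genes called are 17.7% of the 243, against 17.6% of all 13509 genes tested, so the share called was near the background. Split by direction, the 32 rises are 13.2% of the group against 9.25% of all genes, and the 11 falls are 4.53% against 8.34%. With the replicate block 7 genes remained called, or 2.88% of the group against 3.02% of all genes: 6 higher, 2.47% against 1.89%, and 1 lower, 0.412% against 1.13%. Without footprint KO replicate 1, KO replicate 2 or WT replicate 1 the count was 23, 21 or 24 in place of 43. How the share of all genes called changed in these omissions was not counted.

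Zfp260, a protein of finger arrays known as a partner of GATA4 in the heart, had 57.2, 49.1 and 66.3 CPM in the WT footprint libraries and 132, 150 and 111 CPM in the KO libraries. Every KO library lay well above every WT library. The log2 fold change was 1.22 (SE 0.14, FDR 0.00354), and 0.00156 was the FDR with the block. Its RNA had 109, 113 and 79.6 CPM in libraries labelled WT and 120, 114 and 154 CPM in those labelled KO, and the log2 difference of 0.37 (SE 0.17, FDR 0.244) was not called.

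Zfp850 had 7.79, 5.37 and 7.01 CPM in WT footprints and 11.2, 15.7 and 12.8 CPM in KO. The groups did not overlap, and the log2 fold change was 1.01 (SE 0.18, FDR 0.0148, with the block 0.0435). Without KO replicate 2, its highest library, the difference was 0.81 with an FDR of 0.0577, so this call rests on that library. Zfp120 had 3.84, 5.09 and 5.12 CPM in WT and 10.9, 8.45 and 8.35 CPM in KO. All 3 KO libraries exceeded all 3 WT libraries, with a log2 fold change of 1.00 (SE 0.16, FDR 0.00974, with the block 0.0491). The RNA of both genes overlapped between labels, with log2 differences of 0.44 for Zfp850 and 0.46 for Zfp120 that were not called.

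Zfp40 had 7.10, 7.83 and 8.43 CPM in WT footprints and 14.5, 13.2 and 12 CPM in KO, with a log2 fold change of 0.80 (SE 0.10, FDR 0.00407, with the block 0.0449). Its RNA overlapped between labels, and the difference there was -0.07 (SE 0.28, FDR 0.913). Among the genes called with the block it is the only one whose RNA difference had the other sign.

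Zfp68, a KRAB zinc finger protein, had 40.0, 42.4 and 37.7 CPM in WT footprints and 62.3, 58.4 and 65.5 CPM in KO. The groups did not overlap, and the log2 fold change was 0.62 (SE 0.06, FDR 0.00231, with the block 0.0120). Zfp626 had 18.1, 16.5 and 16.2 CPM in WT and 24.4, 26.8 and 27.2 CPM in KO, also a log2 fold change of 0.62 (SE 0.07, FDR 0.0035, with the block 0.0392). RNA differences were 0.28 for Zfp68, whose labelled groups did not overlap, and 0.23 for Zfp626, whose groups did, and neither was called.

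Zfp563 was the single gene called lower with the block. It had 26.0, 26.7 and 30.2 CPM in WT footprints and 19.0, 18.5 and 15.7 CPM in KO, with a log2 fold change of -0.60 (SE 0.09, FDR 0.00722, with the block 0.0464). Its RNA had 32.1, 28.3 and 25.9 CPM in libraries labelled WT and 20.3, 23.2 and 24.8 CPM in those labelled KO. These did not overlap either, and the RNA difference of -0.33 (SE 0.11, FDR 0.142) was not called.

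**Figure D1:**
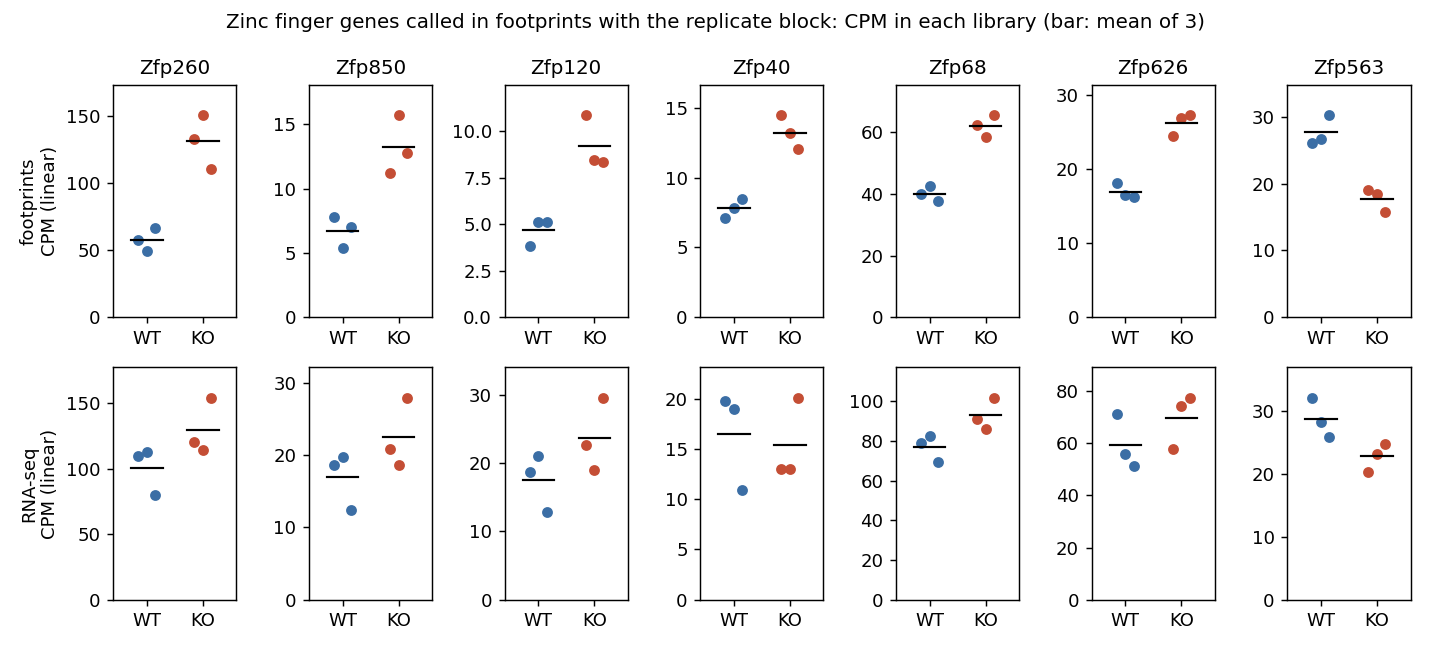
CPM of the 7 zinc finger genes called in footprints with the replicate block, on a linear axis from 0, with 1 point per library, WT in blue, KO in red and a bar at the mean of 3. Footprint groups (top row) do not overlap for any of the 7, while RNA-seq groups (bottom row) overlap for Zfp850, Zfp120, Zfp40 and Zfp626.

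Other large footprint changes were called without the block only. Zfp583 had 2.86, 2.63 and 3.51 CPM in WT and 5.57, 5.91 and 4.42 CPM in KO, with a log2 fold change of 0.91 (SE 0.15, FDR 0.00976, with the block 0.13). It was also lost without KO replicate 2 and with DESeq2 (adjusted p 0.0524). Zfp473 is the mouse form of ZFP100, which takes part in histone pre-mRNA processing with the U7 snRNP. It had 3.21, 3.08 and 3.13 CPM in WT and 1.58, 1.62 and 1.72 CPM in KO, with a log2 fold change of -0.95 (SE 0.11, FDR 0.00364, with the block 0.165). DESeq2 did not call it (adjusted p 0.123). Its RNA differed by 0.08 and was not called.

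Zfp383 fell by 0.61 on the log2 scale, with 5.27, 4.64 and 5.12 CPM in WT and 2.97, 3.51 and 3.19 CPM in KO (FDR 0.0148, with the block 0.25), a call lost without KO replicate 1 or WT replicate 1 and with DESeq2 (adjusted p 0.209). Zfp81 fell by 0.38, from 27.1, 26.1 and 25.4 CPM to 19.6, 20.3 and 20.9 CPM (FDR 0.00611, with the block 0.162). Groups did not overlap for either gene, which the naming rule required of the largest changes named without the block.

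A set of 8 genes kept their footprint call in every omission of a library and under the other alternatives, and lost it with the block only: Zfp81, Zfp51, Zfp113, Zfp60, Zfp667, Zfp53, Zfp846 and Zfp868. Those of them outside the naming rule are named after their values were seen. Zfp60, a KRAB zinc finger protein, had 22.0, 19.9 and 22.1 CPM in WT footprints and 29.7, 32.6 and 29.5 CPM in KO, and rose by 0.54 on the log2 scale (SE 0.07, FDR 0.00503, with the block 0.0561). Zfp868 had 13.5, 14.5 and 15.1 CPM in WT and 22.2, 20.6 and 19.6 CPM in KO, and rose by 0.55 (SE 0.07, FDR 0.00503, with the block 0.074). Zfp113 had 16.0, 16.8 and 14.1 CPM in WT and 23.1, 21.8 and 26 CPM in KO, and rose by 0.56 (SE 0.09, FDR 0.0104, with the block 0.0698). In all 3 genes the lowest KO library was above the highest WT library.

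Over all 43 called genes the changes were mostly small: 10 of the 32 rises and 3 of the 11 falls passed 1.5-fold. The median of the 32 rises was 0.44 in footprints and 0.16 in RNA for the same genes, and 25 of them had a higher RNA value in libraries labelled KO. Of those 32, 3 were also called higher in RNA (Zfp53, Zfp113 and Zfp704) and 1, Zfp358, was called lower there. Of the 11 falls, 8 had a lower RNA value and 1, Zfp821, was called lower in RNA. None of the 7 genes called with the block was called in RNA.

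A fuller view over all 243 genes is given by group overlap and medians. KO and WT footprint libraries did not overlap for 96 genes, 39.5% against 38.1% of all genes tested. By direction, 60 were higher in KO, 24.7% against 18.5%, and 36 lower, 14.8% against 19.6%. The median log2 fold change was 0.06 in the 243 genes and -0.01 over all genes tested. The 243 genes took 0.725%, 0.721% and 0.711% of gene reads in the WT footprint libraries and 0.741%, 0.746% and 0.755% in the KO libraries. The KO shares all lay above the WT shares, by a small margin. In RNA-seq the shares were 1.30 ± 0.079% and 1.29 ± 0.0863% (SD, n = 3) and overlapped.

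**Figure D2:**
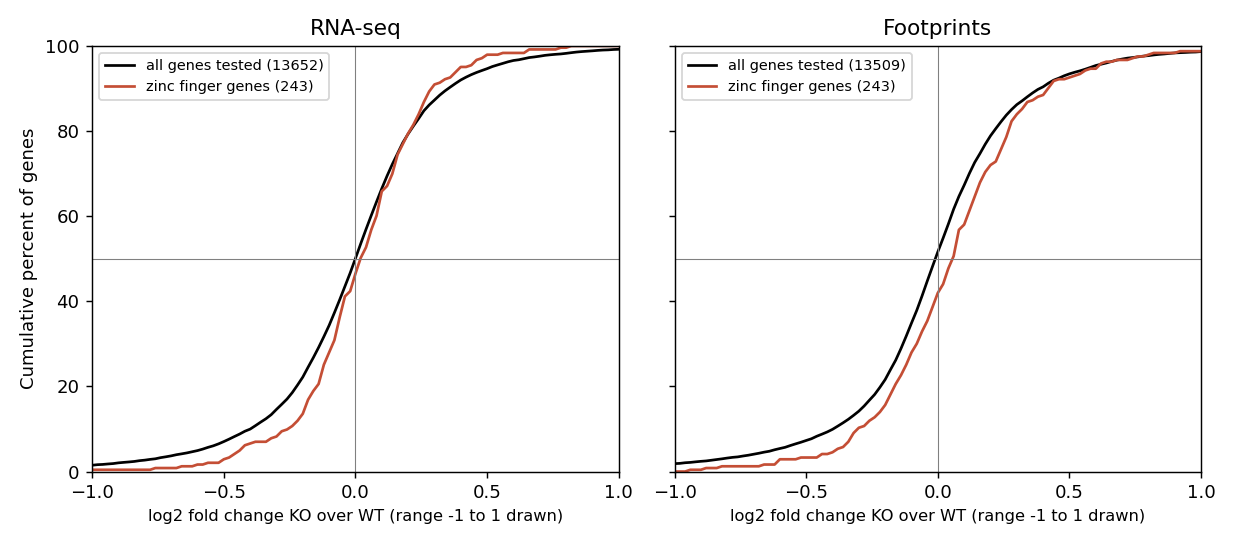
Cumulative percent of genes by log2 fold change of KO over WT, for RNA-seq (left) and footprints (right), with the 243 zinc finger genes in red and all genes tested in black. In footprints the red curve lies to the right of the black one around 0 (medians 0.06 and -0.01). In RNA-seq the curves lie closer at 0 (medians 0.01 and 0.00), with 46.5% and 50.1% of genes at or below 0. They meet near 0.2. Below 0 they lie apart in RNA-seq too, with 13.6% and 22.2% of genes at or below -0.2. In footprints these shares are 15.6% and 21.6%.

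In RNA-seq 4 of the 243 genes were higher and 4 lower in libraries labelled KO. The 8 genes called are 3.29% of the group, against 6.91% of all 13652 genes tested, with 3.48% of all genes called higher and 3.43% lower. With the block 0 of the 243 were called by edgeR, against 0.806% of all genes, and DESeq2 without the block called 2. In edgeR with the block 12 of the 243 had an unadjusted p under 0.05, and the share of all genes at that level was not counted. By edgeR without the block the count was at most 2 when any of the 6 RNA-seq libraries was left out, and 0 without WT replicate 1. The share of all genes called by DESeq2 or in these omissions was not counted. Labelled groups did not overlap for 56 genes, 23.0% against 30.9% of all genes.

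Among the 8 called genes Zfp53 rose most in RNA, with 23.2, 26.8 and 23.3 CPM in libraries labelled WT and 43.3, 37.2 and 43.3 CPM in those labelled KO. The log2 fold change was 0.76 (SE 0.09, FDR 0.00936, with the block 0.0686), and the call was lost without WT replicate 1. Its footprints rose less, by 0.30 (SE 0.05, FDR 0.0113, with the block 0.189). Zfp704 had 125, 134 and 137 CPM and 190, 177 and 172 CPM, a log2 fold change of 0.44 (SE 0.07, FDR 0.0163, with the block 0.222). Its footprints rose by 0.42, close to the RNA value, and the call was lost in 4 of 6 omissions of a library in each assay.

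Zfp141 and Zfp113 were the other genes called higher in RNA, by 0.48 and 0.38 on the log2 scale. Among the called genes Zfp623 fell most, with 8.43, 9.21 and 8.68 CPM in libraries labelled WT and 6.00, 5.21 and 5.86 CPM in those labelled KO. Its log2 fold change was -0.61 (SE 0.10, FDR 0.0228, with the block 0.431), and its footprints differed by -0.13 and were not called. Zfp358, Zfp821 and Zfp707 fell by 0.48, 0.43 and 0.34.

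Across the 243 genes the log2 fold changes of the assays had a Pearson correlation of 0.36 and a Spearman correlation of 0.35, and 148 genes, 60.9%, had the same sign. These points are genes measured in the same few libraries and are not independent replicates.

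**Figure D3:**
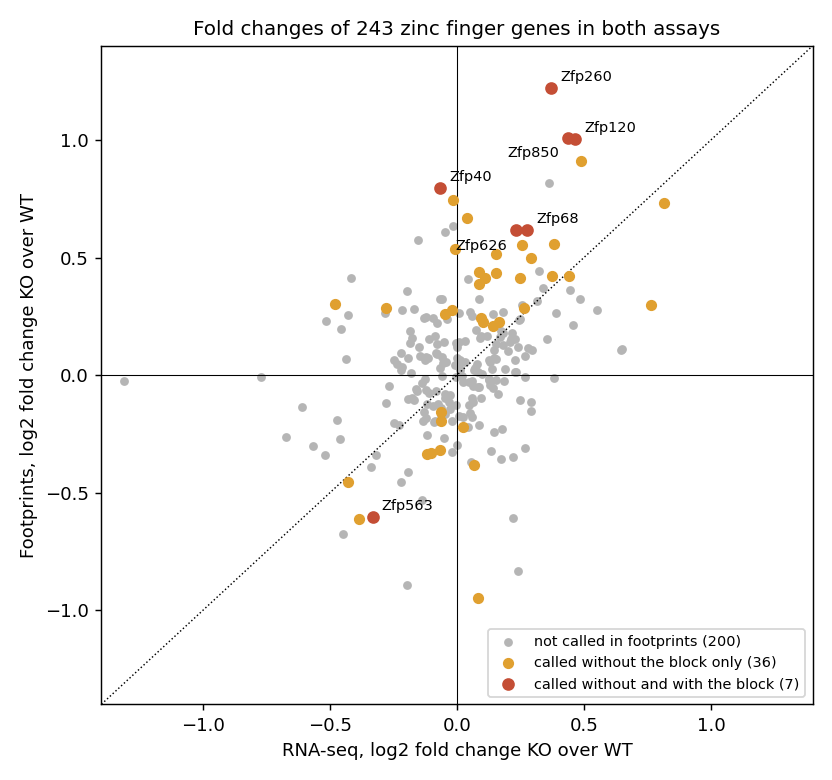
Log2 fold change of KO over WT in RNA-seq (x axis) and footprints (y axis) for the 243 zinc finger genes, with 200 genes not called in footprints in grey, 36 called without the block only in orange and 7 called both ways in red; the dotted line marks equal changes. The 6 red points with higher footprints lie above the line, and Zfp40 lies to the left of 0 in RNA.

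Translation was compared by asking whether KO changed footprints more than RNA, in 1 edgeR model of all 12 libraries with a genotype by assay term. It was called for 2 of the 243 genes, Zfp358 and Zfp362, both higher in KO. That is 0.823% of the group, against 0.211% of all 11854 genes tested, 0.135% in the upward direction. With the replicate block within each assay 0 of the 243 were called (0.0169% of all genes). With 1 block per genotype and replicate number across both assays it was again 0 (0.143%). That block pairs RNA-seq and footprint libraries by number, and the labels do not say which of them share a mouse. In these fits 11 and 42 of the 243 had an unadjusted edgeR p under 0.05. The share of all genes at that level was not counted. DESeq2 without a block called 1. The median over the 243 genes was 0.00, against 0.01 over all genes. In both genes the footprint value was higher and the RNA value lower in KO. Zfp358 footprints had 18.4, 20.0 and 18.4 CPM in WT and 24.3, 22.2 and 24.3 CPM in KO. Its RNA had 19.7, 17.3 and 19.1 CPM and 12.7, 14.7 and 13.1 CPM. Neither assay's groups overlapped, and the interaction was 0.79 on the log2 scale (SE 0.12, FDR 0.0221, 0.998 with the block within assays). Zfp362 footprints had 18.5, 17.7 and 17.1 CPM in WT and 21.0, 21.9 and 22.8 CPM in KO, and its RNA 38.8, 41.8 and 43.0 CPM and 36, 33.4 and 32.4 CPM. Its interaction was 0.57 (SE 0.10, FDR 0.0462, 0.998 with the block within assays). The count was 1 without RNA-seq KO replicate 2 or WT replicate 2, and 0 without any other single library of the 12. For DESeq2 and these omissions the share of all genes called was not counted. None of the 7 genes called in footprints with the block was called for translation; the interaction of Zfp260 was 0.83 (SE 0.23, FDR 0.145) and that of Zfp40 was 0.85 (SE 0.30, FDR 0.24).

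Zinc finger proteins with well described roles were examined by lists. Of 20 DNA-binding regulators, 16 are among the 243 genes, and 3 of those were called in footprints, or 18.8% against 17.6% of all genes, none with the block and none in RNA. Zfp148 (ZBP-89), which binds GC-rich promoters, rose by 0.23 (SE 0.06, FDR 0.0412, with the block 0.258). Zfp219 rose by 0.28 (SE 0.04, FDR 0.00986, with the block 0.218), and Zfp644, a partner of the G9a and GLP histone methyltransferases, fell by 0.16 (SE 0.04, FDR 0.0368, with the block 0.400). DESeq2 did not call Zfp219 or Zfp644. The call of Zfp148 was lost in 4 of 6 omissions of a library, that of Zfp644 in 6 of 6 and that of Zfp219 without KO replicate 2.

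The others of that list did not pass the test. Zfp335, a regulator that thymocyte maturation is known to need, had 56.1 CPM in WT against 48.7 CPM in KO footprints, a log2 difference of -0.20 (SE 0.07, FDR 0.0992). Zfp281 differed by -0.06 and Zfp143, an activator of small nuclear RNA genes, by 0.00 in footprints. Zfp292, among the best counted of all, had 291 and 297 CPM.

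Of 10 proteins of RNA, ribosome, spindle and ubiquitin biology, 9 are among the 243, and none was called in either assay by edgeR or DESeq2. At an unadjusted p under 0.05 edgeR had 2 of the 9 in footprints and 0 in RNA, and the share of all genes at that level was not counted. Zfp598, the ubiquitin ligase that marks collided ribosomes, had 31.8 CPM in WT against 34.0 CPM in KO footprints. Zfp622, which helps mature the large ribosomal subunit, had 65.2 and 67.4 CPM. Zfp207 (BuGZ), a spindle protein, had the most footprint reads of the group, not scaled by length, with 424 and 417 CPM. Among KRAB proteins with known targets, Zfp445 and Zfp568, which act at imprinted loci, and Zfp809, which silences retroviruses, were not called by either tool, and 0 of the 3 had an unadjusted p under 0.05 in edgeR. Zfp809 footprints differed most of the 3, by 0.32 (SE 0.14, FDR 0.154).

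Genes of the KRAB silencing machinery, a list of 20 that are not zinc finger genes of this set, were called 1 time in RNA and 3 times in footprints, never with the block. These are 5% and 15% of the list, against 6.91% and 17.6% of all genes. Mphosph8, a reader of methylated histone H3, was higher in RNA by 0.35. Trim28, the scaffold that KRAB domains bind, fell by 0.16 in footprints and Morc2a by 0.21, and Atf7ip, a partner of Setdb1, rose by 0.21. Rbak, a zinc finger gene named in earlier work as a coding-sequence target of miR-181, stood at 11.3 ± 1.54 CPM in WT against 15.5 ± 2.42 CPM in KO footprints (SD, n = 3). Its groups did not overlap, and the difference of 0.39 (SE 0.13, FDR 0.0989) was not called. In RNA it differed by 0.10.

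In WT thymocytes the zinc finger genes carried fewer footprints for their RNA than the median gene, as did related families. The log2 ratio of footprint to RNA-seq CPM had a median of -0.60 over the 243 genes (quartiles -1.21 and -0.09), against -0.20 over 11853 genes tested in both assays with a finite ratio. It was above 0 for 54 genes, 22.2%, against 44.1% of all genes, and 37.9% of all genes lay below the median of the 243. The median was -1.11 for Zfp900 to Zfp999, -0.89 for Zbtb genes, -0.86 for Klf genes and -0.50 for Zkscan or Zscan genes, so a low ratio is not particular to the 243. No test was made of this difference, since genes are not replicates, and with a minimum mean count of 50, which left 175 of the genes, the median was -0.76. The ratio mixes ribosome load with the share of RNA-seq reads that fall in coding sequence. In the counting 50.9% to 57.1% of RNA-seq reads were assigned to no feature, against 5.32% to 6.39% of footprint reads. Its strand option is not given, so where the unassigned reads lay is not known.

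The highest ratios in the group were those of Zfp143 at 1.84, Zfp703 at 1.10 and Zfp647 at 1.06. The lowest were those of Zfp706, a very small protein, at -3.55, Zfp329 at -3.39 and Zfp420 at -2.97. Zfp871, the gene with most RNA-seq reads per library of the group, had 598 CPM in WT RNA and 190 CPM in footprints. These are reads per gene and not per length, so they do not rank expression.

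**Figure D4:**
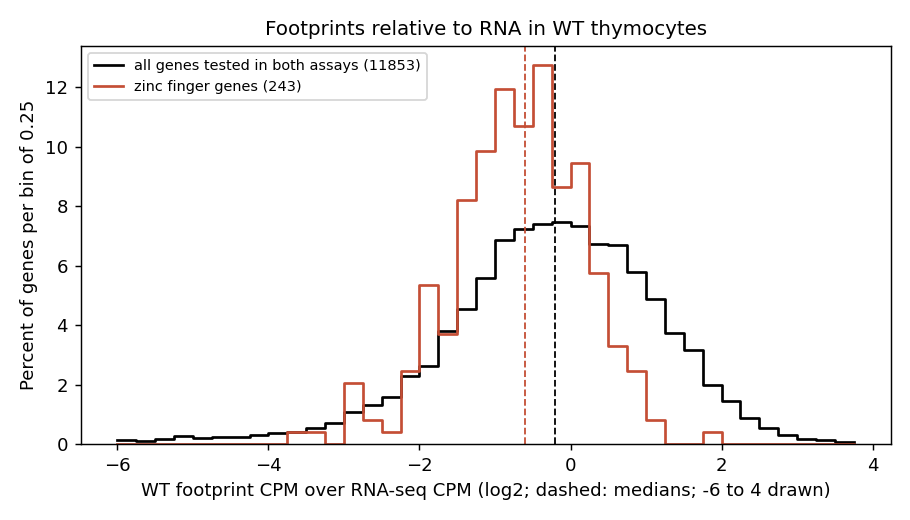
Log2 ratio of mean WT footprint CPM to mean WT RNA-seq CPM, as percent of genes per bin of 0.25, for the 243 zinc finger genes (red) and 11853 genes tested in both assays (black), with dashed lines at the medians of -0.60 and -0.20. The red distribution is narrower and has few genes above 0.

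Zinc finger genes of this kind lie in clusters that arose by repeated duplication. RefSeq (GRCm38.p6) placed 242 of the 243 by symbol: 69 on chromosome 7, 26 on chromosome 13, 24 on chromosome 17 and the rest elsewhere. On chromosome 7, 9 rose and 3 fell in footprints, with a median of 0.08. On chromosome 17, 6 rose and 2 fell, with a median of 0.10. On chromosome 13 none rose and 1 fell, with a median of 0.01. These are 17.4%, 33.3% and 3.8% called, against 17.6% of all genes. With the block 3 rose on chromosome 7, 1 rose and 1 fell on chromosome 17 and none was called on chromosome 13. Of all genes 3.02% were called with the block. Chromosomes 6, 11 and 15, with 14, 12 and 9 of the genes, also had no rise without the block. On chromosome 8, 4 of 14 rose and 1 fell. The differences between chromosomes were not tested.

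For 128 of the genes the next gene on at least 1 side was also a Zfp gene, and 19 of these rose and 5 fell in footprints, with a median of 0.06. Of the 114 without such a neighbour 13 rose and 6 fell, with a median of 0.05. In both sets the share called without the block was near the 17.6% of all genes. With the block 4 and 3 genes were called, near the 3.02% of all genes. The difference between the sets was not tested. Among 70 pairs of direct neighbours within the 243, 40 had footprint changes of the same sign. Both genes were called in 3 pairs without the block, each time in the same direction, and in 0 pairs with it. Zfp60 and Zfp626 rose by 0.54 and 0.62, Zfp667 and Zfp583 by 0.50 and 0.91, and Zfp51 and Zfp53 by 0.51 and 0.30. Near-identical neighbours can share reads, and reads that aligned to several places were not counted to a gene, 17.7% to 18.6% of footprint reads and 13.1% to 20.5% of RNA-seq reads, so the values of close copies are uncertain.

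**Figure D5:**
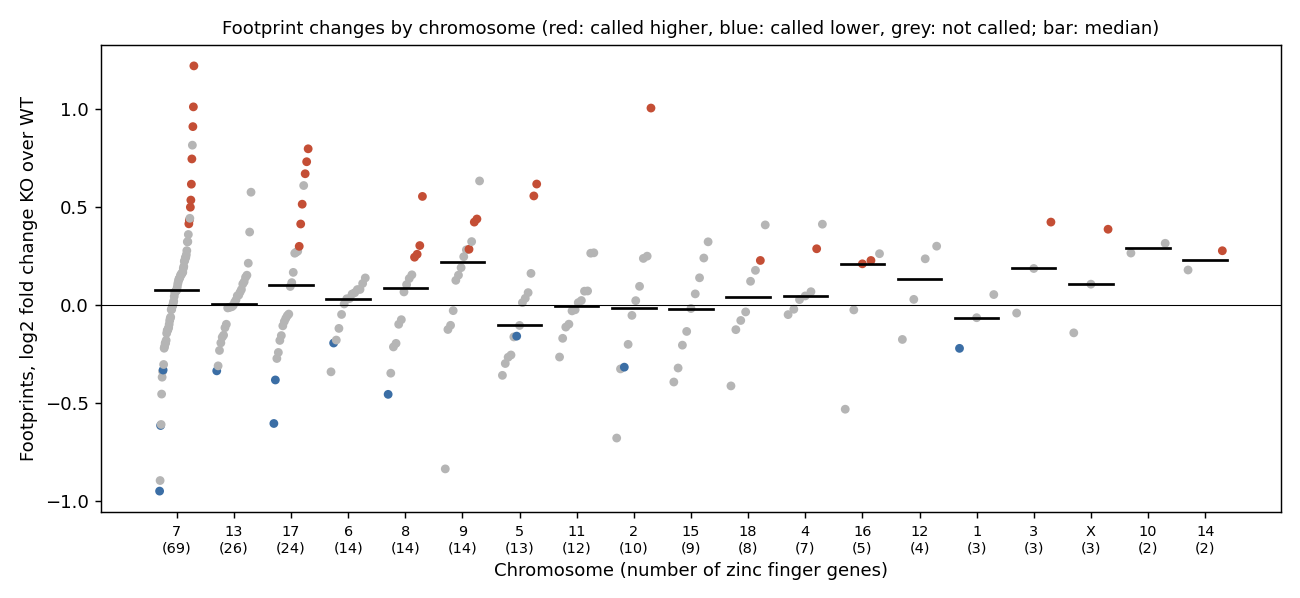
Footprint log2 fold change of KO over WT for 242 zinc finger genes by chromosome, ordered by number of genes, with genes called higher without the block in red, called lower in blue and others in grey, and a bar at each median. Chromosome 7 holds 9 red points among 69 genes, chromosome 17 holds 6 among 24 and chromosome 8 holds 4 among 14. Of all genes tested 9.25% were called higher. Chromosomes 13 (26 genes), 6 (14), 11 (12) and 15 (9) hold none, nor do some with fewer genes.

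The related genes Zfp900 to Zfp999 were counted the same way for comparison. Of 29 tested in footprints, 10 rose and none fell, or 34.5% called against 17.6% of all genes. With the block 4 of the 10 stayed called, and 1.89% of all genes were called higher. The median of the 29 was 0.27 against 0.06 for the 243 genes. In edgeR without the block 1 of 30 was called in RNA, or 3.3% against 6.91% of all genes. The difference between the groups of genes was not tested. In the other C2H2 families 2 of 32 Zbtb genes rose and 4 fell in footprints, 2 of 18 Zkscan or Zscan genes rose and 1 fell, and 1 of 10 Klf genes rose and 1 fell, or 18.8%, 16.7% and 20.0% called against 17.6% of all genes. With the block 1 Zbtb gene rose and 1 fell, 1 Klf gene rose and no Zkscan or Zscan gene was called. Of all genes 1.89% rose and 1.13% fell with the block.

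In the authors' deposited tables, 17 of the 241 listed zinc finger genes were marked as significantly higher in KO footprints and 2, Zfp81 and Zfp563, as lower, against 6.25% and 4.38% of all genes in that table. All 19 were also called here without the block. Both sets of calls rest on the same libraries, so the overlap is not independent support. In the authors' deposited table for RNA-seq, Zfp53 and Zfp704 were marked higher and none of the 243 lower, against 2.46% and 1.66% of all genes. The authors' deposited table gives Zfp260 a footprint log2 fold change of 1.05 with an adjusted p of 6.73e-17. Here edgeR without the block gave 1.22, and DESeq2 without the block an adjusted p of 6.89e-17. The mirrored deviations described above touch these fits too.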

How the data were processed

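RNA-seq and ribosome footprint libraries of thymocytes from 3 WT and 3 KO mice were compared. The authors deposited 1 table of read counts per assay, in whole numbers by Ensembl gene, and describe them as adjusted without saying how. Per the submitters' processing notes, the tools were FastQC, Bowtie2 2.5.1, STAR 2.7.10a, HTSeq 2.0.3 and DESeq2 1.40.2. Which build, annotation and strand option were used is not given in the sources used here. Further tables that the authors deposited hold log2 fold changes and adjusted p-values of KO against WT, used for symbols and where named; 12 columns of per-library values in them were not used. The 5 rows of each table that name no gene were left out: reads in no feature, ambiguous reads, reads with several alignments and the like.

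Each assay was fitted with edgeR 4.0.16 in R 4.3.3 (TMM, filterByExpr with a minimum count of 10, quasi-likelihood test, Benjamini-Hochberg over all genes tested, FDR under 0.05), and translation with a genotype by assay term in 1 model of 12 libraries. CPM was computed from the deposited counts. The fits were tested on simulated data with known changes; estimates were unbiased, and the interaction test recovered fewer of the changes put into those data than the fits of a single assay, so calls of translation have less power. A first criterion on the share recovered was replaced after the interaction missed it. The simulated counts did not mirror deviations between libraries of the same number, so they do not test the fit without the block under that property.

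Deviations of same-numbered libraries (log2 of CPM plus 0.5, and for the check over all genes those with a mean count of 100 or more) correlated negatively, so the numbers were not taken to pair mice, and the block is an alternative. The labels do not say which libraries of the assays share a mouse. Named genes were those called with the block or for translation, among the genes called in each assay, up to 5 that rose and 5 that fell most without overlap (4 and 4 in RNA-seq), members of the role lists, the 3 best counted genes per assay, and the 3 highest and lowest WT ratios. A part of the rule on finger number was not run. The genes and lists were chosen with earlier results of these data known. The alternatives tried were DESeq2 1.42.0, RLE size factors, no low-count filter, the block, an FDR of 0.1, a minimum mean count of 50 and omission of each library.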

Additional observations from a re-analysis of the deposited data

Results flagged for a closer look

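The effect of KO differed between assays for 2 genes by the interaction test of edgeR. Zfp358 had a footprint effect 0.79 above its RNA effect on the log2 scale, and Zfp362 one 0.57 above. Footprints were higher in 3 of 3 KO libraries and RNA lower in 3 of 3 libraries labelled KO for both genes. Neither call held with the replicate block within assays or with 1 block per genotype and number across assays.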

How the results depend on the processing

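Of 243 genes, 8 were called in RNA-seq; an FDR of 0.1 gave 20, DESeq2 2 and the replicate block 0, and leaving out 1 library gave 0 to 2. In footprints 43 were called; DESeq2 gave 18, the block 7, and omissions 21 to 33. The 32 rises became 16 with DESeq2, 6 with the block and 16 to 26 under omissions. The 11 falls became 18 at an FDR of 0.1, 2 with DESeq2, 1 with the block and 4 to 7 under omissions. For translation the count of 2 became 4 at an FDR of 0.1, 1 with DESeq2 and 1 without the filter. It was 0 with the block within assays, 0 with 1 block per genotype and number across assays, and 0 to 1 under omissions. RLE size factors moved none of these counts by more than 1.5 times. Apart from the block, the share of all genes called under these alternatives was not counted. A loss particular to the 243 genes therefore cannot be told from a general one.

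Of the 43 footprint calls 16 were kept in every omission and 27 were lost in at least 1, and 6 were kept in every alternative and omission tried: Zfp260, Zfp120, Zfp40, Zfp68, Zfp626 and Zfp563. No called value changed sign. The median footprint change of the 243 genes was 0.05 to 0.06 under omissions; that of RNA-seq was -0.02 to 0.05 and that of translation -0.01 to 0.05, so neither has a steady sign. The WT ratio, -0.60, was -0.76 with a minimum mean count of 50 and -0.65 to -0.58 under omissions. Of the genes, 63 in RNA-seq and 40 in footprints had a mean count under 50; how the power depends on the count was not tested. An alternative based on finger patterns in the proteins was not run.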
